A study of Homo sapiens with 36 samples.

Results

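The first hour of Src induction was examined in ribosome footprints: 2 libraries from MCF10A-ER-Src cells kept on tamoxifen for 1 h were set against 4 uninduced libraries of the same line, so 6 of the 36 libraries of the series carry the comparison. Each library was placed in its arm by its label. MCF10A-ER-Src is an immortal human breast epithelial line that carries a fusion of Src with the hormone-binding domain of the oestrogen receptor, and every group used here carries that fusion. The induced cells received 1 µM 4-hydroxytamoxifen for 1 h (replicates 1 and 2). The uninduced arm held tamoxifen at 0 h (replicate 1) and the ethanol vehicle at 1, 4 and 24 h (replicate 2 each). All 6 were treated with cycloheximide at 100 µg/ml for 90 s before lysis. Total RNA from 1 tamoxifen library at 1 h and from 4 uninduced libraries (0 h and ethanol at 1, 4 and 24 h) served as a side check. Whether the replicates are separate cultures is not labelled, and the p-values then measure only the spread between these libraries, which may be technical. The 0 h library is the one uninduced library with replicate number 1, so vehicle and replicate number cannot be told apart in that arm. No label ties a total RNA library to the culture of a footprint library.

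Src is a tyrosine kinase at the inner face of the cell membrane that phosphorylates adhesion proteins, adaptors and, directly or through other kinases, STAT3. In the fusion the receptor part holds the kinase inactive until tamoxifen binds it, so the kinase can be switched on without new protein synthesis. Genes that respond within the first hour of a signal are typically immediate-early transcription factors, phosphatases, SOCS proteins and other feedback inhibitors with short-lived messages. Cycloheximide stops elongating ribosomes where they stand, and each protected fragment then marks one ribosome on a message. A footprint count rises with more message, with more ribosomes per message, or with slower ribosomes.

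The 4 uninduced libraries held 1334987 to 3628214 counts and the 2 induced ones 1460263 and 1800921, so a gene at 10 CPM (counts divided by the scaled library total, with trimmed mean factors) rested on 13.3 to 38.0 counts. The biological coefficient of variation was 13.9% over the footprint libraries. The marker sums that follow are CPM of the library total over all symbols, without these factors. Epithelial marker genes summed to 16920 to 21390 CPM in the uninduced and 17580 to 19580 CPM in the induced libraries. The 16 fibroblast markers summed to 156.0 to 202.2 CPM against 182.7 to 183.5, with COL1A2, COL3A1, LUM, THY1 and PRRX1 at 0. The endothelial markers summed to 4.32 to 8.99 CPM against 5.00 to 5.48, with PECAM1, CDH5 and VWF at 0. The leukocyte markers summed to 53.9 to 72.8 CPM against 71.9 to 84.4, with PTPRC and CD3E among those at 0. CD68, 1 of the 3 leukocyte markers with enough counts to test, lay above all 4 uninduced libraries and was not called. In bulk libraries fewer cells of a type and less RNA per cell cannot be told apart.

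Both parts of the fusion were well covered in every library. SRC, whose row can hold reads of the cell's own gene and of the fusion, had 300.7 footprint CPM at 0 h and 302.1, 364.3 and 494.5 CPM in ethanol at 1, 4 and 24 h. The induced libraries had 280.8 and 267.5 CPM. Both lay below every uninduced library, but the change of −0.42 ± 0.19 (log2, SE) did not pass the test (adjusted p = 0.629, edgeR quasi-likelihood test with Benjamini-Hochberg adjustment). ESR1, the oestrogen receptor gene, had 1392, 1008, 1032 and 1703 CPM in the uninduced libraries and 1309 and 962.3 CPM in the induced ones. Its groups overlapped (log2 −0.18 ± 0.20). In total RNA SRC had 22.1 to 33.3 CPM uninduced and 33.5 CPM after 1 h, and ESR1 611.2 to 1183 and 575.7 CPM. How much of either row comes from the fusion was not tested. The induction acts on the protein, so these levels do not measure its activity.

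After 1 h on tamoxifen 2 of 10195 tested genes rose in footprints, GADD45B and SGK1, which is 0.0196% of the genes tested. None passed in the other direction (0%, 0 of 10195), where the smallest adjusted p was 0.0644 and 422 genes had an unadjusted p under 0.05 (376 in the upward direction, edgeR). DESeq2 called 5 genes in that direction, ZFP36L1, ID1, IL1A, IL1B and PABPC1. The levels of 878 genes (8.61%) lay in both induced libraries above all 4 uninduced ones, and those of 926 genes (9.08%) lay below all 4. The median change over all tested genes was −0.0043 on the log2 scale and 49.3% of them were above 0.

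GADD45B encodes a small stress-induced protein that binds and activates an upstream kinase of the p38 and JNK pathways. On GRCh37 the gene spans positions 2476120 to 2478257 of chromosome 19, on the plus strand, and the counted transcript was NM_015675. Its footprints were 9.04 CPM at 0 h and 14.7, 21.3 and 13.7 CPM in ethanol at 1, 4 and 24 h. They were 60.7 and 51.2 CPM after 1 h of tamoxifen, from 88 and 93 counts. Both induced libraries were far above the highest uninduced one. The mean rose from 14.7 ± 5.07 (SD, n = 4) to 56.0 ± 6.73 CPM (SD, n = 2). On the log2 scale this was 1.87 ± 0.25 (adjusted p = 0.0133, edgeR). GADD45B remained above the uninduced libraries at the later times, with 52.3 and 35.7 CPM at 4 h and 43.7 and 57.8 CPM at 24 h, and was called at both (adjusted p = 0.00703 and 9.62e-05, edgeR).

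SGK1 encodes the serum- and glucocorticoid-regulated kinase, an AGC kinase related to AKT whose own message is short-lived. On GRCh37 the gene spans positions 134490386 to 134639250 of chromosome 6, on the minus strand, and the counted transcript was NM_005627. Its footprints were 80.6 CPM at 0 h and 67.1, 56.8 and 62.1 CPM in the 3 ethanol libraries. After 1 h of tamoxifen they were 169.7 and 134.9 CPM, each well above the highest uninduced library. The mean rose from 66.7 ± 10.2 (SD, n = 4) to 152.3 ± 24.6 CPM (SD, n = 2). On the log2 scale this was 1.21 ± 0.17 (adjusted p = 0.0133, edgeR). At 4 h the libraries had 95.9 and 72.3 CPM, a change from the uninduced level that did not pass (log2 0.34, adjusted p = 0.706, edgeR). At 24 h they had 110.7 and 135.2 CPM and the gene was called again (log2 0.91, adjusted p = 0.00128, edgeR). The step between 1 and 4 h was not called (log2 −0.87 ± 0.20, adjusted p = 0.152, edgeR). With either induced library left out, neither gene passed (GADD45B log2 1.75 and 2.00, SGK1 1.04 and 1.37). Without the ethanol 4 h library SGK1 did not pass (log2 1.14, adjusted p = 0.0823, edgeR), and GADD45B did.

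The promoters of both called genes are shown because these are the 2 messages that passed, each as the 250 bases before to 50 bases after a RefSeq start (GRCh38.p14), 5′ to 3′ on the gene's strand. RefSeq lists 3 starts for SGK1, and the one nearest the 3′ end of the gene is printed. Capitals mark TATAAA, searched on both strands, which 11.5% of the 35116 RefSeq promoters of that length hold. The GADD45B window is chr19:2475877-2476176 on the plus strand and the SGK1 window is chr6:134174817-134175116 on the minus strand.
GADD45B: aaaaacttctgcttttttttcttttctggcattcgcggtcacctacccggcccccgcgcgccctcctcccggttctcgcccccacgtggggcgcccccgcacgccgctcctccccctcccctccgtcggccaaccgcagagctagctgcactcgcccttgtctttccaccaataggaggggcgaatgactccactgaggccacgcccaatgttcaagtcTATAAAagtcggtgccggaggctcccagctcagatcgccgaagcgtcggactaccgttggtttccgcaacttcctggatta
SGK1: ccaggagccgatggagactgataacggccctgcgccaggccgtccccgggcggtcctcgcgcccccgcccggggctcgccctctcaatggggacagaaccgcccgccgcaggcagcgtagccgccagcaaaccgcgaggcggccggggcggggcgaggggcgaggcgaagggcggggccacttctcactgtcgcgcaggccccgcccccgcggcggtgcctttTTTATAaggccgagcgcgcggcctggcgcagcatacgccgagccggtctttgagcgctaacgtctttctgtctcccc
The match begins at base 220 of the GADD45B window and at base 224 of the SGK1 window, where the match is on the opposite strand. Also searched on both strands were TTCNNNGAA, the STAT motif (7.66% of promoters), TGANTCA, the AP-1 motif (7.71%), and TGACGTCA, the cyclic AMP response element (1.85%). None of these 3 was in the printed windows. A match is a description of letters and not a bound site.

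**Figure D1:**
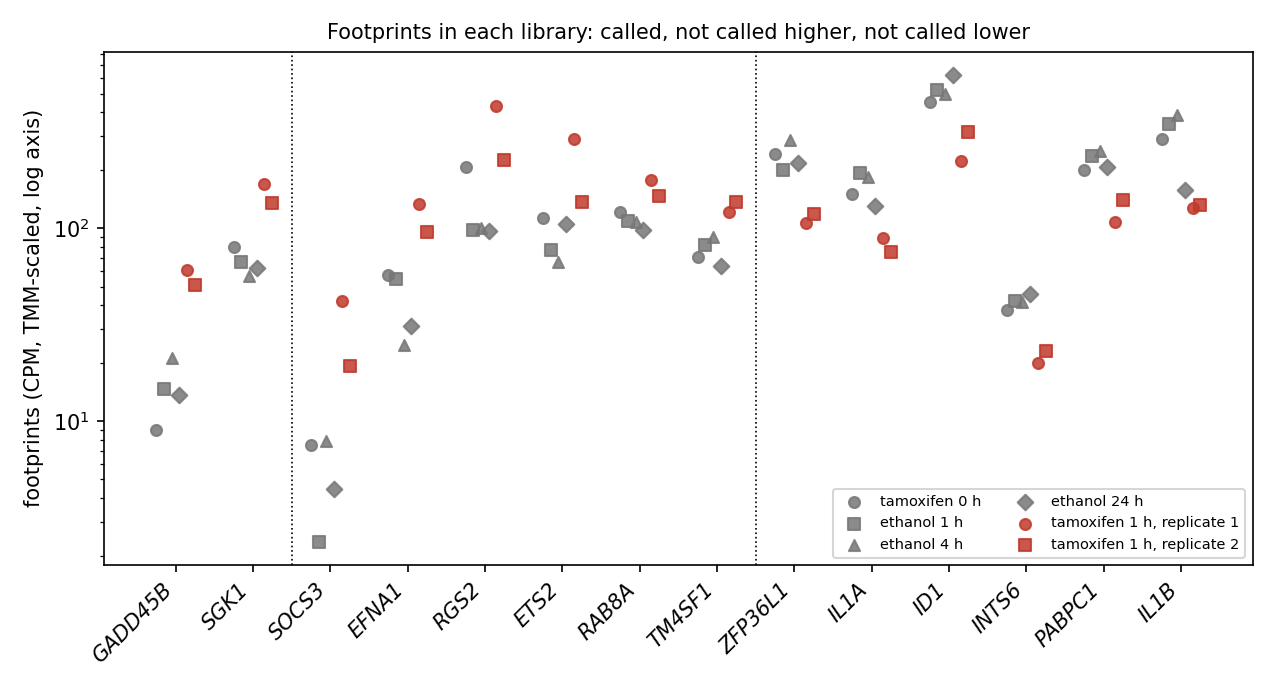
Footprints (CPM after TMM scaling, log axis) of the 14 genes with the smallest p at 1 h, 1 point per library: grey for the 4 uninduced libraries and red for the 2 tamoxifen 1 h libraries. Left of the first dotted line are the 2 called genes, then the 6 genes of smallest p above the uninduced libraries and the 6 below them, none of which was called by edgeR. In each of the 14 genes both red points lie outside the grey ones.

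Among the genes above the uninduced libraries that did not pass, SOCS3 had the smallest p. It encodes the feedback inhibitor of IL6 receptor signalling and is a target of STAT3. Its footprints were 7.54, 2.38, 7.96 and 4.47 CPM in the uninduced libraries (0 h, then ethanol at 1, 4 and 24 h) and 42.1 and 19.3 CPM after 1 h. Both induced values were above every uninduced one, and the first was the higher of the pair (log2 2.51 ± 0.42, adjusted p = 0.0644, edgeR). The gene was called at 4 h (45.4 and 21.3 CPM, adjusted p = 0.00450) and at 24 h (154.4 and 179.1 CPM, adjusted p = 8.0e-08, edgeR).

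RGS2, an inhibitor of G protein signalling, had 209.5 CPM at 0 h against 97.8, 100.9 and 97.3 CPM in ethanol. The induced libraries had 432.6 and 227.4 CPM, both above the uninduced ones (log2 1.42 ± 0.30, adjusted p = 0.246, edgeR). The second was little above the 0 h library and well above the ethanol libraries. With 1 CPM added, the log2 ratio of replicate 1 to 0 h was 1.04 and of replicate 2 to ethanol 1 h 1.21. Without the 0 h library RGS2 passed (log2 1.74, adjusted p = 0.0152, edgeR). ETS2, a transcription factor downstream of RAS and MAP kinase signalling, had 113.8, 77.0, 66.9 and 105.0 CPM uninduced and 292.5 and 137.6 CPM induced (log2 1.25 ± 0.27). Without the first induced replicate the change in ETS2 was 0.62 and without the second 1.71, and for RGS2 it was 0.89 and 1.81. EFNA1, a membrane-bound ligand of EPH receptors, had 57.3, 54.8, 25.0 and 31.3 CPM uninduced and 133.8 and 96.3 CPM induced (log2 1.49 ± 0.30). In SOCS3, RGS2, ETS2 and EFNA1 the first induced replicate was the higher of the pair. So it was in the called genes GADD45B and SGK1 and in RAB8A, but not in TM4SF1 (both below). SOCS3, RGS2, ETS2 and EFNA1 were each called against the uninduced libraries at 4 h and at 24 h.

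RAB8A, a small GTPase of vesicle traffic to the cell surface, had 122.1, 109.7, 107.8 and 98.1 CPM uninduced and 178.0 and 147.0 CPM induced (log2 0.58 ± 0.13, adjusted p = 0.384, edgeR). Its total RNA was 161.2 CPM after 1 h, inside the uninduced range of 149.5 to 170.2 CPM. TM4SF1, a tetraspanin-like membrane protein, had 70.8, 81.8, 90.4 and 64.2 CPM uninduced and 121.4 and 137.1 CPM induced (log2 0.75 ± 0.17). TM4SF1 was called at 4 h (288.3 and 198.3 CPM) and at 24 h (452.1 and 498.6 CPM), while RAB8A was called at neither time.

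In the downward direction no gene passed in edgeR. ZFP36L1, an RNA-binding protein that directs messages with AU-rich elements to decay, had 243.4, 201.0, 287.6 and 219.4 CPM in the uninduced libraries. After 1 h it had 106.9 and 118.9 CPM, both well below the lowest uninduced library (log2 −1.07 ± 0.18, adjusted p = 0.0644, edgeR). At 4 h the levels were 193.0 and 234.6 CPM and at 24 h 319.2 and 240.3 CPM, and neither time was called. Its relative ZFP36L2 had 150.7, 131.8, 144.0 and 150.7 CPM uninduced and 108.3 and 96.9 CPM at 1 h (log2 −0.49 ± 0.17).

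ID1, an inhibitor of basic helix-loop-helix transcription factors and a target of BMP signalling, had 455.2, 521.5, 498.5 and 625.8 CPM uninduced and 224.2 and 316.0 CPM induced (log2 −0.96 ± 0.19, adjusted p = 0.177, edgeR). INTS6, a subunit of the Integrator complex, had 37.7, 42.2, 41.6 and 45.5 CPM uninduced and 20.01 and 23.1 CPM induced (log2 −0.96 ± 0.19). PABPC1, the poly(A)-binding protein whose message carries a terminal oligopyrimidine tract, had 202.0, 236.4, 253.6 and 207.8 CPM uninduced and 107.6 and 139.8 CPM induced (log2 −0.86 ± 0.17). The 2 groups did not overlap in any of these 3 genes. The total RNA of INTS6 (132.6 CPM at 1 h) and PABPC1 (736.5 CPM) lay inside the uninduced ranges of 128.5 to 172.1 and 705.1 to 933.0 CPM, and that of ID1 (38.9 CPM) lay below its range of 47.3 to 74.0 CPM.

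Footprints of the interleukin 1 genes lay below the uninduced range at 1 h, without passing the test, and above it at 4 h. IL1A encodes interleukin 1 alpha, an inflammatory cytokine of epithelial cells. Its footprints were 151.5, 194.2, 185.6 and 131.3 CPM in the uninduced libraries and 89.7 and 75.4 CPM at 1 h (log2 −1.01 ± 0.18, not called). At 4 h they were 224.0 and 260.6 CPM and at 24 h 155.6 and 193.0 CPM. The step from 1 to 4 h passed, with a log2 change of 1.56 ± 0.20 (adjusted p = 0.00639, edgeR). IL1B encodes interleukin 1 beta, the related secreted cytokine. It had 291.6, 346.8, 389.2 and 157.8 CPM uninduced and 127.6 and 131.6 CPM at 1 h (log2 −1.19 ± 0.27, not called). At 4 h it had 557.7 and 722.5 CPM, and the step from 1 h passed (log2 2.31 ± 0.30, adjusted p = 0.00639, edgeR). Both 4 h libraries lay above both 1 h libraries and above all 4 uninduced ones in both genes. Tested against the uninduced libraries at 4 h, IL1A did not pass (log2 0.55, adjusted p = 0.221, edgeR). IL1B did (log2 1.115, adjusted p = 0.0379, edgeR).

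The promoters of these 2 genes are shown because their footprints moved together between 1 and 4 h. Capitals mark any match to the 4 motifs named above. The IL1A window is chr2:112784351-112784650 and the IL1B window chr2:112836730-112837029 (GRCh38.p14, both on the minus strand). For IL1A RefSeq lists 2 overlapping windows, and the one nearer the 3′ end of the gene is printed.
IL1A: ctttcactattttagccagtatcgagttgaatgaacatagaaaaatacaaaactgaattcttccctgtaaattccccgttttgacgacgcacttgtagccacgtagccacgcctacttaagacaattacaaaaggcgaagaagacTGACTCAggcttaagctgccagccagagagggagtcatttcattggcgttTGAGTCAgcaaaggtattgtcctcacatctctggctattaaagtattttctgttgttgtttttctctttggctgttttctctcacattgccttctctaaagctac
IL1B: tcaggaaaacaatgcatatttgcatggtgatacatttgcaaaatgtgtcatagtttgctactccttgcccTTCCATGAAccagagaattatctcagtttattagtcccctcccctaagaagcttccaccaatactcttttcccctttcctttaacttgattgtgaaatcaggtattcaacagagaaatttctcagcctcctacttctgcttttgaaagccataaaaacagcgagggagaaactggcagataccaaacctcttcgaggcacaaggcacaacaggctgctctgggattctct
The IL1A window holds 2 AP-1 matches, the first, TGACTCA, at base 146, and no other match. The IL1B window holds 1 STAT match, TTCCATGAA, at base 71, and no other match. RefSeq windows were found for 13 of the 14 genes of smallest p. Of these 13, 1 had an AP-1 match (IL1A) and 1 a STAT match (IL1B), beside 7.71% and 7.66% of all RefSeq promoters. A cyclic AMP response element was matched in 1 of them (ZFP36L1) and TATAAA in 4. The IL1A window that is not printed holds the same 2 AP-1 matches and TATAAA at base 12.

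In all, 9 genes rose from 1 h to 4 h (0.0883% of 10195) and none fell (0%, 702 in both directions with an unadjusted p under 0.05, edgeR). DESeq2 called 4 genes lower. Beside IL1A and IL1B they were CLDN1, a tight junction protein, DUSP1, a MAP kinase phosphatase, PLSCR1, a phospholipid scramblase, SBNO2, a STAT3 target, WWC1, the Hippo pathway protein KIBRA, TGM1, the transglutaminase of the cornified envelope, and CCL2, a monocyte chemokine. CLDN1 had 38.0 and 28.1 CPM at 1 h and 123.5 and 128.9 CPM at 4 h (log2 1.95 ± 0.26, adjusted p = 0.00639, edgeR). DUSP1 had 141.4 and 116.2 CPM at 1 h and 392.8 and 285.6 CPM at 4 h, and at 1 h its lower library was below all 4 uninduced ones while its higher one was not. CCL2 had 4 and 7 counts at 1 h against 0, 1, 6 and 4 counts in the uninduced libraries. At 4 h it had 67.2 and 22.2 CPM. Without either 1 h library no gene was called in this comparison. Without the first 4 h replicate 2 genes were called and without the second 28.

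The same uninduced libraries are the control at each time. Against them 87 genes were called higher at 4 h (0.853%) and 2 lower (0.0196%), and at 24 h 897 were called higher (8.8%) and 596 lower (5.85%).

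**Figure D2:**
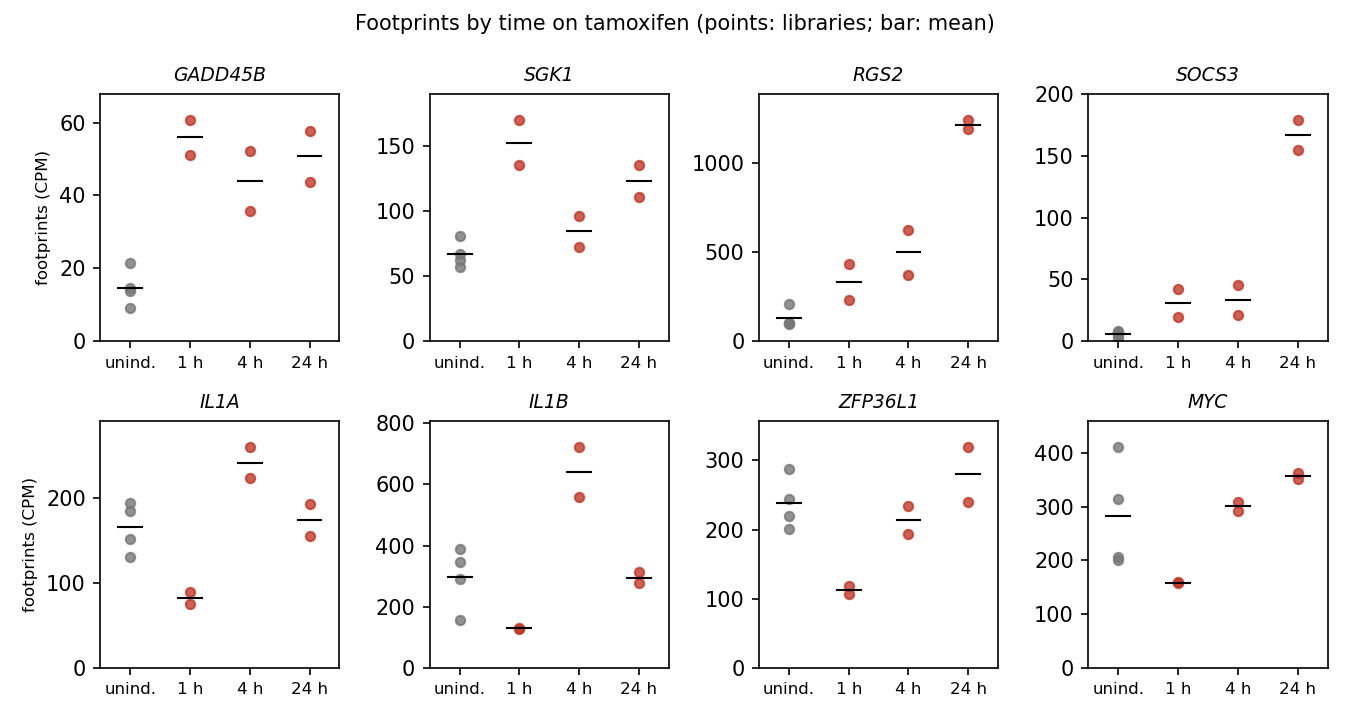
Footprints (CPM, linear axis from 0) of 8 genes in the 4 uninduced libraries (grey) and at 1, 4 and 24 h of tamoxifen (red, 2 libraries each). Points are libraries and bars are means. GADD45B and SGK1 are high at 1 h, IL1A and IL1B are low at 1 h and high at 4 h, and RGS2 and SOCS3 are highest at 24 h.

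The total RNA gave a side check with 1 induced library. RGS2 rose, from 71.2 CPM at 0 h and 95.5, 77.8 and 97.0 CPM in ethanol to 216.6 CPM after 1 h (log2 1.34 ± 0.18, adjusted p = 0.0309, edgeR). It was the one call of 10629 genes in that direction (0.00941%), and none was called in the other (0%, 262 genes in both directions with an unadjusted p under 0.05, 2 called lower by DESeq2). The test assumes that the single induced library varies like the 4 uninduced ones. The call did not hold without the 0 h library, the ethanol 1 h library or the ethanol 4 h library (adjusted p = 0.121, 0.210 and 0.336, edgeR), while the log2 change was 1.26, 1.40 and 1.30. A single library lay above all 4 uninduced RNA libraries in 19.4% of genes and below all 4 in 19.2%.

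The 2 genes called in footprints also lay outside the uninduced RNA range. GADD45B had 5.21 to 7.16 CPM of RNA in the uninduced libraries and 14.7 CPM after 1 h (log2 1.25 ± 0.43, adjusted p = 1, edgeR). SGK1 had 18.3 to 26.9 CPM uninduced and 56.7 CPM after 1 h (log2 1.20 ± 0.26, adjusted p = 0.718, edgeR). Of the 10 genes with the smallest footprint p, all 10 had an RNA change of the same sign, and of the first 20, 18. Among the first 50 it was 39 (78%) and over all 9825 genes tested in both kinds of library 56.4%. The 2 exceptions among the first 20 were RAB8A and OSTC, a subunit of oligosaccharyltransferase named here after its values were seen (log2 0.50 in footprints and −0.12 in RNA). The induced RNA library lay outside the uninduced range in the direction of the footprints in 8 of the first 10 and 15 of the first 20. Against the ethanol 1 h RNA library alone, only INTS6 among the first 10 had the other sign (log2 ratio 0.05).

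Other RNA changes were large but not called. ETS2 had 38.5 to 58.5 CPM uninduced and 124.2 CPM after 1 h (log2 1.40 ± 0.21, adjusted p = 0.0520, edgeR). DUSP6, the phosphatase that inactivates ERK, had 18.7, 19.1, 22.5 and 25.1 CPM uninduced (0 h, then ethanol) and 3.13 CPM after 1 h (log2 −2.75 ± 0.47, adjusted p = 0.111, edgeR). The 3.13 CPM rests on few counts, from 1 library of 2225445 counts, so the size of this RNA change is uncertain. In footprints DUSP6 had 87.4, 59.6, 53.9 and 66.6 CPM uninduced and 33.8 and 30.8 CPM induced, with no overlap and a smaller change of −1.03 ± 0.26. MAP3K8 and SNAI2 were picked after their RNA values were seen. MAP3K8, a kinase upstream of ERK, had 1.19 to 3.18 CPM of RNA uninduced and 20.1 CPM after 1 h, and in footprints 3, 7, 5 and 8 counts uninduced and 18 and 12 counts induced. SNAI2, a repressor of epithelial genes, had 107.0 to 150.8 CPM of RNA uninduced and 53.6 CPM after 1 h, and 111.7 to 132.0 CPM of footprints uninduced and 58.6 and 93.0 CPM induced.

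**Figure D3:**
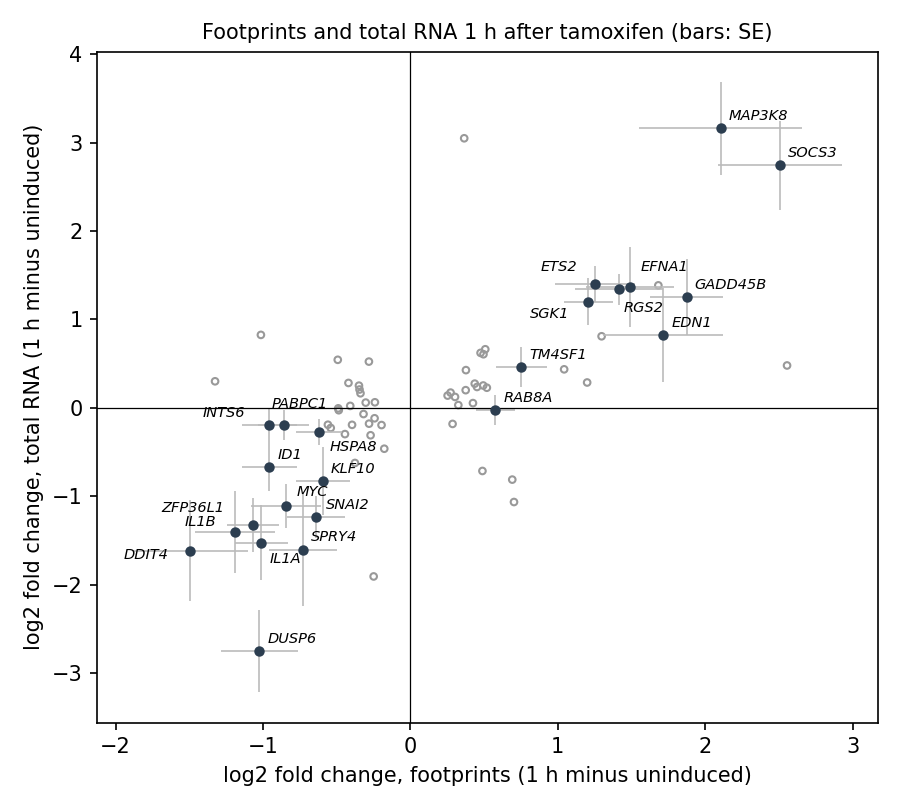
Log2 fold change (1 h of tamoxifen minus uninduced) in footprints on the horizontal axis and in total RNA on the vertical axis for the 72 genes named by rank of p, list or call that have a value in both. Filled points with names and SE bars are the genes of smallest footprint p and others picked for display after their values were seen, and open points are the rest. The signs are the same in 56 of the 72 and opposite in 16. Footprints have 2 induced libraries and total RNA has 1.

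Ribosome loading, the footprint change beyond the RNA change, was tested as an interaction over 17 libraries. No gene of 11147 was called higher (0%) or lower (0%), with 186 and 239 genes at an unadjusted p under 0.05 (edgeR), and DESeq2 called 0. The smallest p values belonged to RASL11B, RANBP10, MMAA, RPL29, SP110 and SH3BGRL3, all with an adjusted p of 1.00 (edgeR). RPL29, a ribosomal protein, had 635.3, 714.3, 699.6 and 805.7 footprint CPM uninduced and 567.1 and 608.3 induced, and its RNA was 389.8 to 530.6 CPM uninduced and 680.7 CPM after 1 h (loading −0.82 ± 0.24). SH3BGRL3, a small thioredoxin-fold protein, had 218.8 to 259.6 footprint CPM uninduced and 350.5 and 328.1 induced, and its RNA was 11.1 to 18.9 CPM uninduced and 8.49 CPM after 1 h (loading 1.18 ± 0.34). For GADD45B the loading term was 0.60 ± 0.47 and for SGK1 −0.01 ± 0.28.

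Footprint changes at 1 h moved with coding length. A coding length, the longest in the GENCODE annotation of GRCh37, was found for 99.7% of the tested genes. The genes were put in 5 equal groups. In the group with the shortest coding regions (2033 genes, median 552 bases) the median log2 change was 0.13, and 17.2% of genes lay above all 4 uninduced libraries against 2.76% below. In the group with the longest (median 3612 bases) the median was −0.07, with 4.43% above and 12.7% below. The total RNA medians of these 2 groups were 0.02 and −0.01. Both induced libraries showed the slope, with medians of 0.13 and 0.13 in the shortest group and −0.07 and −0.06 in the longest, while the uninduced libraries, which make up the mean they are set against, stayed within −0.03 to 0.04. GADD45B has a coding length of 528 bases and SGK1 of 1578 bases. The part of this slope in the results for single genes and lists was not tested.

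**Figure D4:**
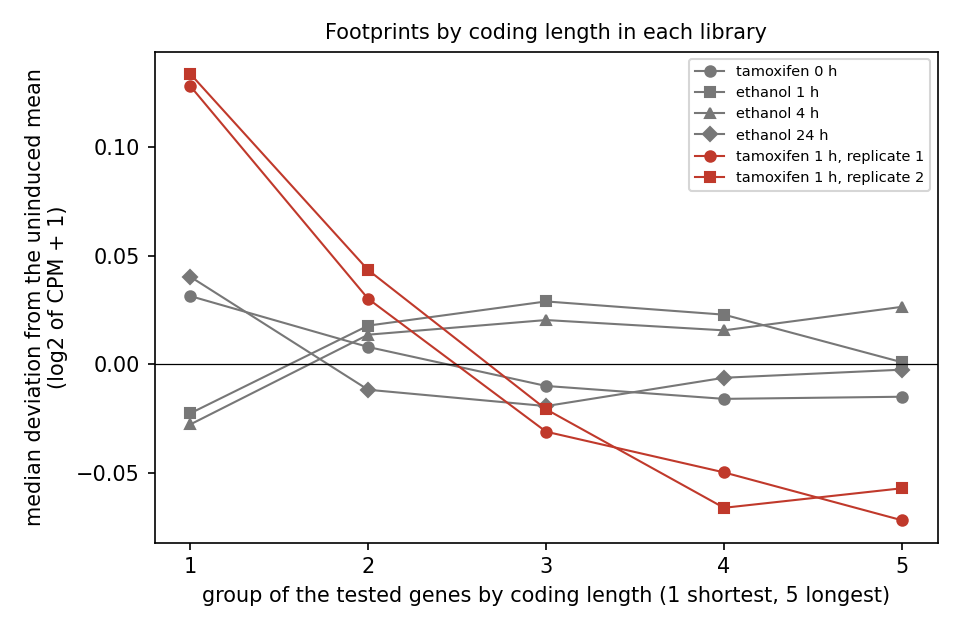
Median deviation from the mean of the 4 uninduced libraries (log2 of CPM + 1) by group of coding length, from the shortest (1) to the longest (5), 1 line per library. The 2 tamoxifen 1 h libraries (red) run from 0.13 in the shortest group to −0.07 and −0.06 in the longest, and the uninduced libraries (grey) lie between −0.03 and 0.04.

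Genes of 25 lists were then described by role, each with its count of called genes and of genes whose groups did not overlap, to be read against 8.61% above and 9.08% below over all genes. Only GADD45B was called in any list, the one headed p53 targets (1 of 19). Whether p53 acts on GADD45B was not tested. The list medians are given beside the median of −0.0043 over all genes.

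Immediate-early transcription factors had 1 of 21 tested genes above all uninduced libraries (SRF) and 6 below (FOS, IER2, JUN, KLF10, MAFK and MYC), with a median of −0.03 (−0.21 to 0.07 over the alternatives run). MYC, the growth-promoting transcription factor, had 206.5, 200.6, 314.7 and 411.2 CPM uninduced and 160.1 and 157.4 CPM at 1 h (log2 −0.84 ± 0.24, adjusted p = 0.534, edgeR). The ethanol 4 and 24 h libraries were its highest. With 1 CPM added, MYC had log2 ratios of −0.37 (replicate 1 over 0 h) and −0.35 (replicate 2 over ethanol 1 h). Its RNA had 265.6 to 450.2 CPM uninduced and 176.9 CPM after 1 h. KLF10, a repressor induced by TGF-beta, had 54.2 to 67.1 CPM uninduced and 46.2 and 30.8 CPM at 1 h (log2 −0.60 ± 0.18). At 24 h KLF10 was called higher (117.5 and 106.0 CPM, adjusted p = 0.000468, edgeR).

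Of the feedback genes of MAP kinase signalling, 0 of 20 lay above and 5 below (DUSP6, ETV5, PHLDA1, SPRY2 and SPRY4), with 7 of 20 changes above 0 and a median of −0.29 in footprints (−0.40 to −0.15 over the alternatives run) and −0.29 in RNA. SPRY4, a Sprouty inhibitor of receptor tyrosine kinases, had 29.3 to 42.7 CPM uninduced and 20.7 and 24.8 CPM induced (log2 −0.73 ± 0.23). DUSP6 was called higher at 24 h (242.4 and 164.7 CPM, log2 1.62, adjusted p = 4.7e-05, edgeR). The EGF receptor family and its ligands had no gene outside the uninduced range (0 of 8), with changes from −0.25 (EREG, epiregulin) to 0.25 (ERBB2, HER2).

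NF-kappaB subunits and feedback genes had 3 of 19 above (IRAK2, NFKBIB and RELA) and 0 below, 16 changes above 0 and a median of 0.45 (0.22 to 0.61 over the alternatives run). NFKBIB, an inhibitory subunit, had 30.1, 31.0, 19.5 and 19.7 CPM uninduced and 37.3 and 41.8 CPM induced (log2 0.69 ± 0.22, not called). Its RNA was at 5.36 CPM after 1 h, below the uninduced 6.36 to 12.9 CPM. TNFAIP3, the ubiquitin-editing inhibitor A20, had 50.5, 26.2, 19.5 and 10.3 CPM uninduced and 85.6 and 34.7 CPM induced, and the groups overlapped. Inflammatory mediators had 1 of 15 above (CCL2) and 2 below (IL1A and IL1B), with a median of 0.10 in footprints and −0.97 in RNA, and the footprint median was −0.21 without the first induced replicate and 0.60 without the second.

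The IL6 and STAT3 feedback list had 2 of 20 above (SOCS3 and IL6ST) and 2 below, with a median of −0.04 (−0.22 to 0.12 over the alternatives run). IL6ST, the shared receptor subunit gp130, had 88.2, 91.3, 92.6 and 92.1 CPM uninduced and 106.2 and 118.4 CPM induced (log2 0.30 ± 0.12). Interferon-induced genes had 2 of 21 above (IFI6 and ISG15) and 1 below, with a median of −0.05 (−0.08 to 0.12 over the alternatives run). ISG15 rested on 7, 12, 8 and 19 counts uninduced and 10 and 19 counts induced.

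Targets of YAP and of the serum response factor had 3 of 25 above (CYR61, EDN1 and FHL2) and 0 below, 22 changes above 0 and a median of 0.17 (0.04 to 0.27 over the alternatives run), with 0.25 in RNA. EDN1, the peptide endothelin 1, had 6.78, 4.09, 9.77 and 2.63 CPM uninduced and 16.6 and 19.8 CPM induced (log2 1.71 ± 0.41, adjusted p = 0.419, edgeR). At 4 h EDN1 had 7.47 and 10.3 CPM. FHL2, a LIM-domain coactivator, had 71.3 to 119.8 CPM uninduced and 140.7 and 125.0 CPM induced (log2 0.51 ± 0.19).

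The Src pathway and focal adhesion list had 3 of 27 above (BCAR1, ITGB1 and SHC1) and 4 below (CRKL, CTNND1, PTPN11 and SRC), with a median of 0.00. BCAR1, the Src substrate p130Cas, had 69.2 to 98.7 CPM uninduced and 108.3 and 106.8 CPM induced (log2 0.44 ± 0.16). The TGF-beta, BMP and ID list had 2 of 14 above (BAMBI and TGFB1) and 2 below (ID1 and TGIF1). INHBA, the activin subunit, had 16.6, 6.81, 5.79 and 6.31 CPM uninduced and 24.8 and 12.7 CPM induced, with overlap. Extracellular matrix genes and proteases had 2 of 28 above (COL17A1 and MMP1) and 0 below. MMP1 had 0, 2, 2 and 0 counts uninduced and 2 and 6 counts induced.

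Medians of the stress lists ran from −0.37 to 0.02. Heat shock proteins had 0 of 16 above and 5 below (DNAJB4, HSP90AB1, HSPA4, HSPA8 and HSPD1), with a median of −0.37 (−0.45 to −0.18 over the alternatives run). HSPA8, the constitutive HSP70, had 3490, 3428, 4548 and 3322 CPM uninduced and 2371 and 2445 CPM induced (log2 −0.62 ± 0.16, adjusted p = 0.509, edgeR). HSPD1, the mitochondrial chaperonin, had 882.5 to 1003 CPM uninduced and 731.3 and 730.5 CPM induced (log2 −0.40 ± 0.14). ATF4 and amino acid stress genes had 0 of 21 above and 4 below (DDIT4, PHGDH, PSAT1 and SHMT2). DDIT4, an inhibitor of mTORC1, had 205.7, 144.8, 171.5 and 445.6 CPM uninduced and 85.6 and 87.5 CPM induced (log2 −1.49 ± 0.39), and its RNA had 30.5 to 91.1 CPM uninduced and 15.6 CPM after 1 h. Its ethanol 24 h library was the highest. With 1 CPM added, its footprint log2 ratios were −1.26 (replicate 1 over 0 h) and −0.72 (replicate 2 over ethanol 1 h). Chaperones of the endoplasmic reticulum had 1 of 20 above (MANF) and 1 below (CANX). The p53 list had GADD45B and PLK2 above and GDF15, XPC and ZMAT3 below, with a median of 0.00. Regulators of messenger RNA decay had 0 of 17 above and 2 below (ZFP36L1 and ZFP36L2).

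Messages with a terminal oligopyrimidine tract, mostly ribosomal proteins and elongation factors whose translation depends on mTORC1, had 21 of 92 below all uninduced libraries and 1 above (RPS15). Their median was −0.15 in footprints and 0.08 in RNA, and 14 of 92 footprint changes were above 0. The footprint median stayed between −0.28 and −0.11 over the alternatives run. None was called. EIF4B, an initiation factor, had 200.5, 244.2, 238.4 and 242.5 CPM uninduced and 173.9 and 158.0 CPM induced (log2 −0.49 ± 0.13, adjusted p = 0.534, edgeR), with RNA of 1311 CPM inside the uninduced 1199 to 1695 CPM. The list's median coding length was 543 bases, near that of the shortest group of all genes, whose median change was 0.13. At 24 h the list's median was −0.73.

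Histones had 2 of 22 above (HIST1H4C and HIST1H4E) and 0 below, 21 changes above 0 and a median of 0.27, with 0.28 in RNA and a median coding length of 390 bases. Without the second induced replicate the histone median was −0.01 and without the first 0.46. HIST1H4C had 672.2, 924.4, 724.6 and 829.4 CPM uninduced and 963.1 and 1193 CPM induced, and as histone genes are near-identical copies their single values are uncertain. Oxidative phosphorylation had 6 of 35 above and 3 below, 27 changes above 0, a median of 0.08 (0.02 to 0.16 over the alternatives run) and a median coding length of 516 bases. COX6A1, a subunit of cytochrome c oxidase, had 423.5, 346.8, 353.4 and 489.8 CPM uninduced and 578.1 and 558.2 CPM induced (log2 0.49 ± 0.15). Glycolysis had 0 of 21 above and 4 below (GAPDH, HK1, LDHB and PKM), with a median of −0.13 that was −0.24 without the first induced replicate and −0.05 without the second. Mitosis genes had 0 of 30 outside in either direction but only 4 changes above 0 (median −0.16). Their median was −0.65 without the first induced replicate and 0.19 without the second. E2F targets had 1 of 34 above (GINS2) and 1 below (RPA1). Cholesterol synthesis (0 of 21) and oestrogen receptor targets (0 of 8) had no gene outside. The aryl hydrocarbon and oxidant list had 0 of 15 above and 1 below. Its median was −0.13, and it was 0.13 without the first induced replicate and −0.71 without the second.

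**Figure D5:**
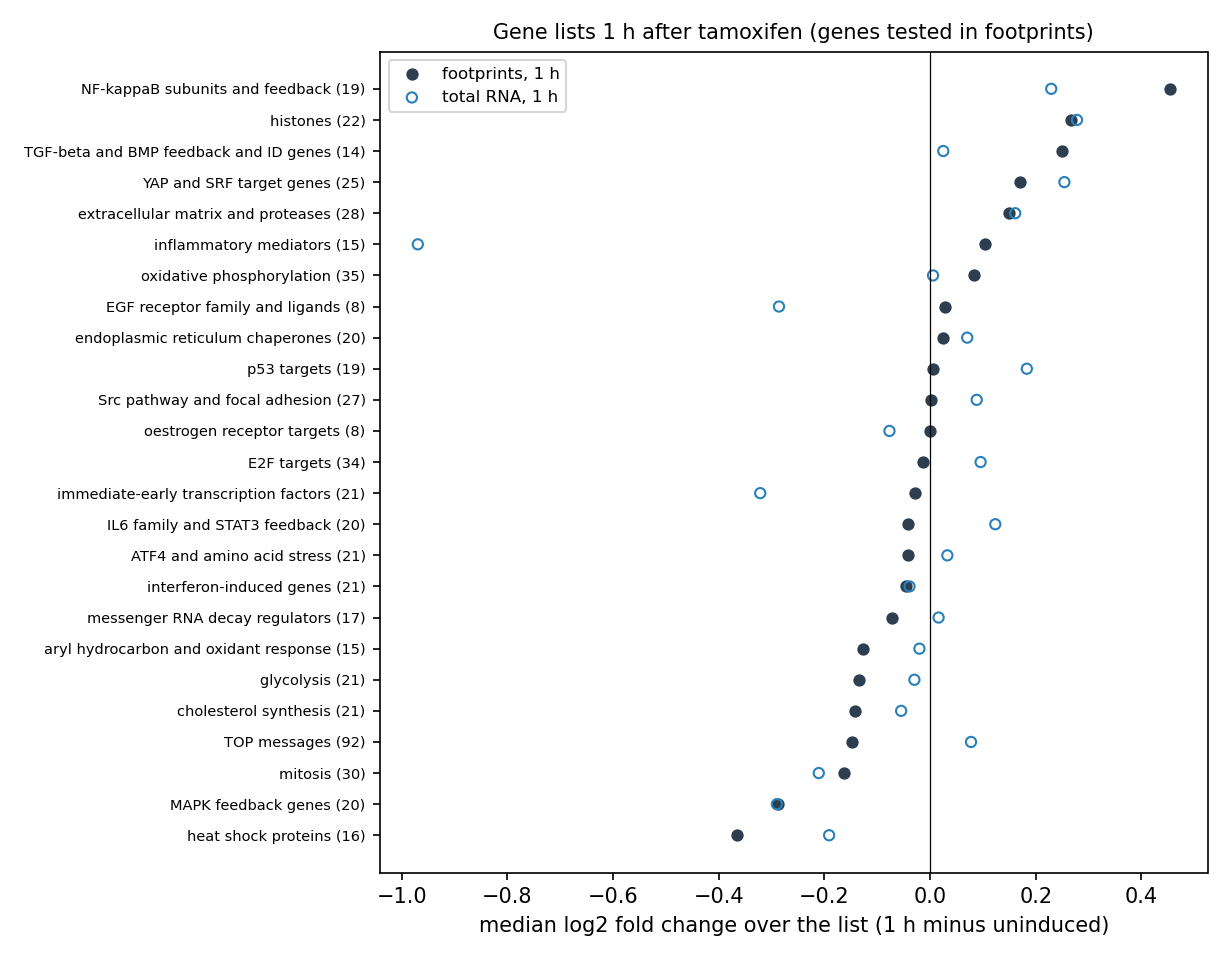
Median log2 fold change (1 h of tamoxifen minus uninduced) over each of the 25 gene lists, filled for footprints and open for total RNA, with the number of genes tested in footprints in brackets. The footprint medians run from −0.37 (heat shock proteins) to 0.45 (NF-kappaB), and TOP messages lie below 0 in footprints and above 0 in RNA.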

How the data were processed

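The deposited values are counts of reads per transcript, 1 table per library with 36499 transcripts. Per the submitters' processing notes the authors aligned with TopHat to hg19 (GRCh37), without a version, and no source used here names the counting program. For each of 19137 symbols the transcript with the highest mean over the 10 ER-Src cycloheximide libraries was kept (7298 symbols have several). Reads shared by isoforms or near-identical genes may be counted in each. Footprints were fitted with edgeR 4.0.16 (R 4.3.3) over those 10 libraries in 4 arms, with TMM scaling, filterByExpr (minimum count 10, total 15), two-sided quasi-likelihood tests, Benjamini-Hochberg adjustment over all genes tested and a call at 0.05. SE is the log2 change divided by the square root of F. RNA (7 libraries, 2225445 to 3007972 counts) and loading (17 libraries) were fitted likewise. Named genes were the called ones, the 6 of smallest p not called in each direction, up to 4 called or else 2 of smallest p per list, and 6 for loading. The comparison, the members and the lists were chosen with earlier results of these data known. Alternatives were DESeq2 1.42.0, other scaling, filters, uninduced arms and libraries left out. BJ fibroblast and harringtonine libraries were left out of the fits. The harringtonine libraries include ER-Src cells at 0 h and at 1 h of tamoxifen, 1 library each (183049 and 163098 counts). In these 2 libraries GADD45B had 1 and 6 counts, SGK1 9 and 13, and RGS2 17 and 10. Changes between them were not tested. Results of a few list members are not reported here.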

Additional observations from a re-analysis of the deposited data

Results flagged for a closer look

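In 6 of 57 genes described, 1 of the 4 uninduced footprint libraries lay far from the other 3, judged by its gap to the nearest of them as a share of the range (Dixon's 95% critical value). Chance gives this in about 1 of 20 groups. The tamoxifen 0 h library stood apart for RGS2 (209.5 CPM, above the others), INHBA (16.6 CPM, above) and EIF4B (200.5 CPM, below). The ethanol 24 h library stood apart for MANF (185.2 CPM, below) and DHCR7 (163.1 CPM, above), and the ethanol 4 h library for HSPA8 (4548 CPM, above). IL1A and IL1B differed between the 1 h and the 4 h libraries by log2 1.56 and 2.31, tested directly (adjusted p = 0.00639 for each, edgeR quasi-likelihood test with Benjamini-Hochberg adjustment).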

How the results depend on the processing

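At 1 h in footprints, DESeq2 called 3 genes higher and 5 lower, no filter on low counts gave 13 and 9, summing all transcripts of a symbol gave 0 higher, and ethanol 1 h alone as control gave 0 higher. Leaving out 1 library gave 0 to 3 higher (0 without either tamoxifen library, 1 without ethanol 4 h, 3 without ethanol 24 h) and 0 to 3 lower (1 without ethanol 1 h, 3 without ethanol 24 h). GADD45B passed in 11 and SGK1 in 10 of 15 alternatives, RGS2 and ZFP36L1 in 4. Ethanol libraries alone as control and the 0 h library left out are the same fit. That fit, in which GADD45B, SGK1 and RGS2 passed, is counted 2 times here and among the list medians below. In RNA, DESeq2 called 2 higher and 2 lower and no filter 4 and 2, and leaving out 1 library gave 0 to 9 higher and 0 to 6 lower (9 and 6 without ethanol 24 h). From 1 h to 4 h DESeq2 called 32 higher and 4 lower, and leaving out 1 library gave 0 to 28 higher. Loading had 0 calls under every alternative run. Where calls changed, the cause was not tested. With ethanol 1 h alone as control HERPUD1 (−0.172), MSMO1 (0.0317), PLAUR (−0.00298) and ESR1 (0.181) changed sign, and without tamoxifen 1 h replicate 2 ERBB2 (−0.0339) and ESR1 (0.0316) did, with ranges over libraries left out of −0.0339 to 0.474 and −0.414 to 0.0316. None of these was called. Of the list medians under these alternatives, 336 moved by less than the spread and 39 by more. With the replicate number as a block the footprint calls at 1 h were 3 higher (GADD45B, SGK1 and RGS2, the last with log2 1.22) and 1 lower (DUSP6, log2 −1.16), and from 1 h to 4 h 12 higher. Deviations of same-numbered libraries correlated at 0.27, 0.28, 0.16 and −0.11. Each deviation was taken from the mean of its arm, so the 2 induced libraries mirror each other and these 4 values are not independent. They cannot decide whether the numbers pair the libraries. As no label says what a number marks, the main fit used no block. With 2 induced libraries, genes resting on under about 10 counts are limited by counting error.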

Other observations

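The coding length slope seen at 1 h was also present at 4 h, where the median log2 footprint change against the same uninduced libraries was 0.06 in the shortest group and −0.07 in the longest. At 24 h it ran the other way, from −0.07 in the shortest group to 0.11 in the longest. These times share their control libraries.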
